A study of Mus musculus with 6 samples.

Results

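The Eomes locus was examined in chromatin immunoprecipitation sequencing (ChIP-seq) data on Ezh2 from mouse T helper cells. The locus was taken as a fixed stretch of 22 kb on chromosome 9, chr9:118380001-118402000 in the mm9 build, with the gene on the plus strand and its 5′ end near 118387300. This window gave 22 bins of 1 kb out of 2638957 such bins on chromosomes 1 to 19 and X. The window is defined by these coordinates alone, but the locus was taken up with earlier results of these data known. No mm9 annotation was used here, so the exons and the 3′ end of the gene were not placed. In the GRCm38.p6 gene table, used for the order of genes only, the nearest named protein-coding genes were Cmc1 before Eomes and Golga4 after it.

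Eomes (eomesodermin, also called Tbr2) is a transcription factor of the T-box family and the closest relative in T cells of T-bet, the factor that directs the Th1 fate. In CD8 T cells and natural killer cells it drives genes of cytotoxic function and interferon gamma. Outside the immune system it acts in early embryos and in the developing brain. Ezh2 is the enzyme of Polycomb repressive complex 2, which methylates lysine 27 of histone H3 and is found over genes that a cell keeps silent, among them many genes for developmental transcription factors.

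The cells came from the spleens of C57BL/6 mice as naive (CD44 low, CD62L high) CD4 T cells, and the labels name no other allele. In all cultures they were stimulated on plates coated with antibody to TCRβ, with antibody to CD28 and 15 ng/ml IL-2, for 2 days, and were kept for a further 3 days without T cell receptor and CD28 stimulation. Th1 cultures also held 10 ng/ml IL-12 and antibody to IL-4, and Th2 cultures 100 ng/ml IL-4 and antibody to interferon gamma. For each cell type there were 3 libraries: 1 from a pull-down with polyclonal anti-Ezh2, 1 from a pull-down with rabbit IgG as control antibody, and 1 of input DNA. The number of mice is not given in the labels, and there was 1 library in each group, so the intervals and tests here cover counting error only and compare libraries, not populations of cells. Labelled cell identity could not be checked on marker genes, since genes were not placed and the libraries hold genomic DNA.

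Each line of a deposited file is an interval of the genome with the number of reads on it. A distinct interval is called a position here and was counted 1 time, at its midpoint. There were 10809666 positions in the Th1 Ezh2 library and 14963599 in the Th2 Ezh2 library. The control antibody library of Th1 held 9326717, and the inputs held 15578675 in Th1 and 12862628 in Th2. The Th2 control antibody file was whole on 8 chromosomes, chromosome 9 among them, where it held 5053626 positions. Levels of the 6 libraries are therefore given as scaled positions per kb, that is, per kb for a library with 10000000 positions on those 8 chromosomes. By their file names the Th1 and Th2 Ezh2 libraries were sequenced in different runs, so cell type and run cannot be told apart.

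Ezh2 lay over Eomes in both cell types, and less of it in Th1 than in Th2. The window held 316 Ezh2 positions in Th1 and 909 in Th2. Against these stood 118 and 144 positions in the Th1 and Th2 control antibody libraries, and 182 and 139 in the Th1 and Th2 inputs. Scaled to depth, the Ezh2 level was 32.2 scaled positions per kb in Th1 (95% exact Poisson interval 28.7 to 36.0) and 66.9 in Th2 (62.6 to 71.3). The control antibody level was 13.8 (11.4 to 16.5) in Th1 and 13.0 (10.9 to 15.2) in Th2. The input level was 12.8 (11.0 to 14.8) in Th1 and 11.8 (9.92 to 13.9) in Th2. The order was thus Th2 Ezh2, then Th1 Ezh2, then the 4 other libraries, whose intervals overlapped.

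**Figure D1:**
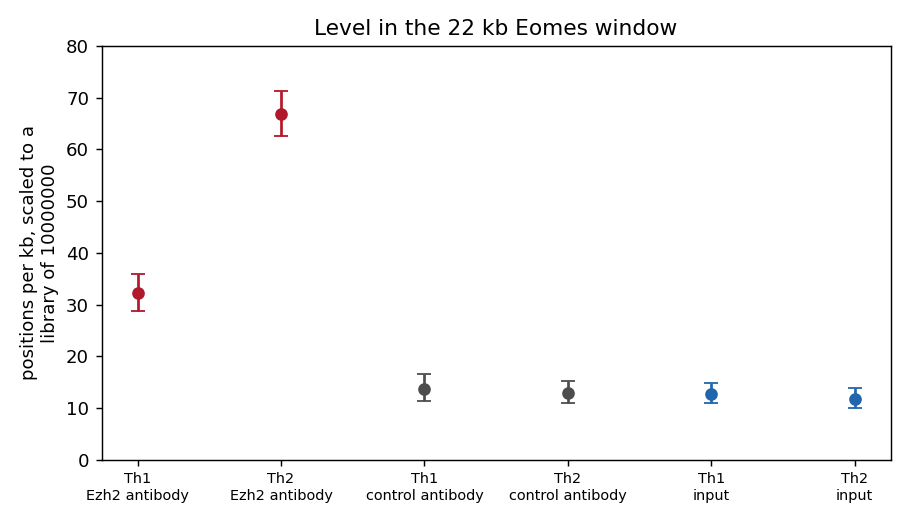
Level of each of the 6 libraries in the 22 kb Eomes window, in positions per kb scaled to a library of 10000000 positions on 8 chromosomes. Points are single libraries and bars are 95% exact Poisson intervals; the Th1 and Th2 Ezh2 libraries stand at 32.2 and 66.9, above the control antibody and input libraries at 11.8 to 13.8.

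The first question of the design was where Ezh2 was bound in each cell type. Over input, Ezh2 in the Eomes window was 2.50-fold in Th1 (95% Clopper-Pearson interval 2.08 to 3.02), and in Th2 5.62-fold (4.70 to 6.77). A two-sided exact binomial test of these positions, with Benjamini-Hochberg adjustment over all windows of 22 kb laid side by side along the genome, gave an adjusted p of 1.10e-21 in Th1 and 2.07e-112 in Th2. Of those windows, 8.79% passed as higher in Th1 Ezh2 than in input and 8.52% in Th2, so passing alone does not set Eomes apart. By size of the fold, the Eomes window ranked 998 of 114622 windows in Th1 and 219 of 114663 in Th2.

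The control antibody served as a second background. Ezh2 was 2.31-fold over it in Th1 (1.86 to 2.88, exact test, adjusted p = 4.01e-14) and 5.16-fold in Th2 (4.32 to 6.20, exact test, adjusted p = 2.06e-102). Of all windows, 11.2% passed as higher over the control antibody in Th1 and 10.5% in Th2. The control antibody itself stood at 1.08-fold over input in Th1 (0.852 to 1.37, exact test, adjusted p = 0.907) and 1.10-fold in Th2 (0.864 to 1.40, exact test, adjusted p = 0.898), where 0.127% and 0.057% of windows passed as higher in Th1 and Th2. Both backgrounds thus put the locus at similar folds within each cell type.

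Ezh2 was lower on both sides of the window. In the 30 kb before it, Ezh2 over input was 1.37-fold in Th1 (1.13 to 1.65), and in Th2 1.45-fold (1.21 to 1.75), and in the 30 kb after it 1.02-fold in Th1 (0.842 to 1.23), and in Th2 1.21-fold (1.01 to 1.46). Within the Th1 Ezh2 library the window held 2.07 times as many positions per kb as the 30 kb on each side of it (1.78 to 2.40), and within the Th2 Ezh2 library 4.06 times (3.66 to 4.51). The same ratio was 1.09 in the Th1 and 1.07 in the Th2 control antibody library, and 0.975 in the Th1 and 0.960 in the Th2 input, each with an interval that holds 1. This comparison needs no library total, because both counts come from 1 library.

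**Figure D2:**
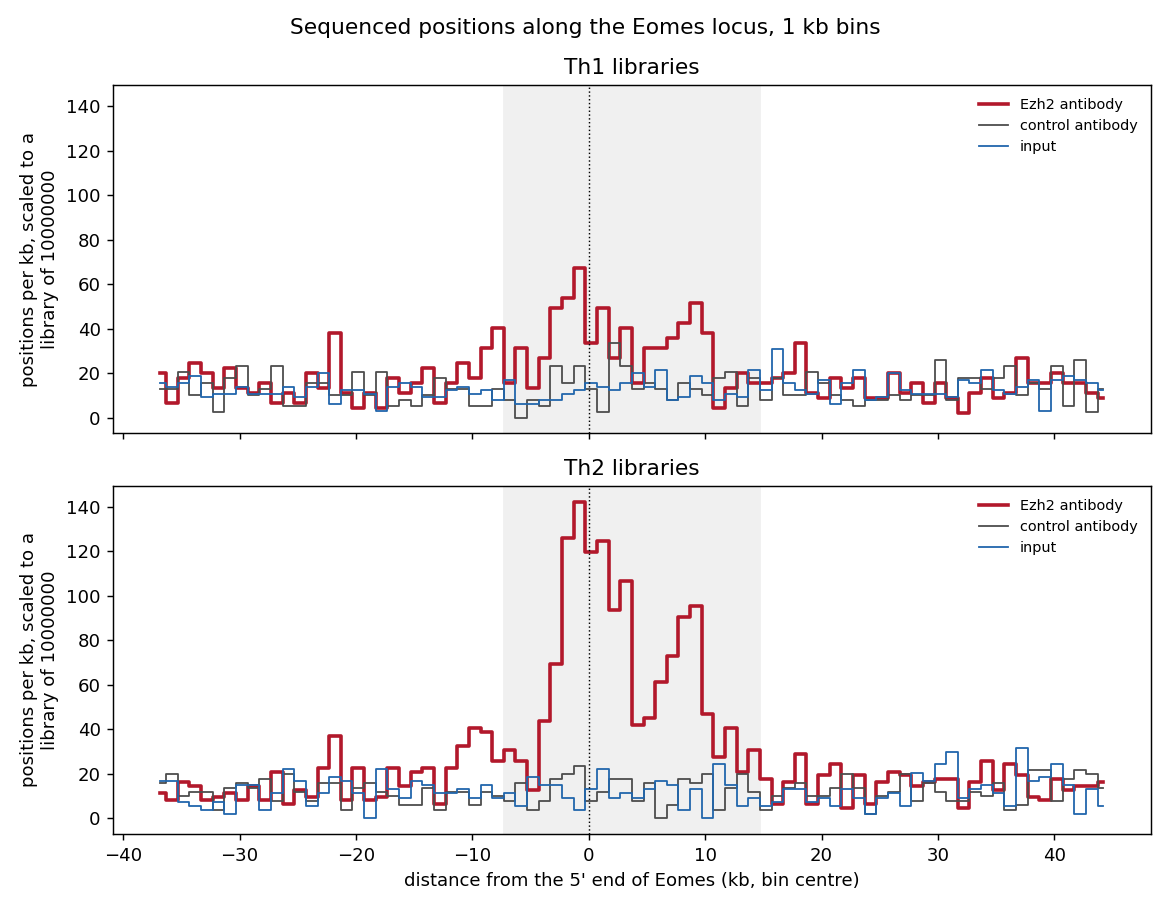
Scaled positions per kb in 1 kb bins (y axis) against the distance of the bin centre from the 5′ end of Eomes in kb (x axis), for the Th1 libraries (top) and the Th2 libraries (bottom). Lines are the Ezh2 antibody, the control antibody and the input, the grey band is the 22 kb window and the dotted line the 5′ end; the Ezh2 line has a crest just before the 5′ end, at 67.3 in Th1 and 142.4 in Th2, and a second one about 9 kb after it.

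Along the locus the Ezh2 positions formed 2 crests, in bins picked after their values were seen. The higher crest was the bin from 118386001 to 118387000, just before the 5′ end. It held 30 Ezh2 positions in Th1 and 88 in Th2, beside 9 and 12 control antibody positions and 8 and 2 input positions in Th1 and Th2. Over input that was 5.40-fold in Th1 (2.42 to 13.6), and in Th2 37.8-fold (10.2 to 317.2), the Th2 value resting on 2 input positions. The second crest was the bin from 118396001 to 118397000, about 9 kb after the 5′ end, where Ezh2 had 23 positions in Th1 and 59 in Th2. Between them lay a trough at 118391001 to 118392000, with 7 in Th1 and 26 in Th2, so the dip was present in both cell types. Over the 22 bins the Th1 and Th2 Ezh2 positions had a Pearson correlation of 0.819 and a Spearman correlation of 0.836, while the control antibodies of Th1 and Th2 had 0.331 and 0.331, and their inputs -0.111 and -0.170. These bins are neighbours on 1 stretch of DNA and are not independent, and the values are a description of the shared shape.

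The bin that holds the 5′ end, from 118387001 to 118388000, follows the higher crest and had 15 Ezh2 positions in Th1 and 74 in Th2. Over input that was 2.16-fold in Th1 (0.909 to 5.38), and in Th2 9.09-fold (4.20 to 23.4). The 250 bases before the start of the gene, the stretch next to the higher crest, are shown here, from RefSeq in the GRCm38.p6 build (chr9:118477939-118478188, plus strand), with CpG dinucleotides and CCAAT boxes in capitals. These coordinates are of another build than the mm9 positions above, and no reads were counted by them.
Eomes promoter: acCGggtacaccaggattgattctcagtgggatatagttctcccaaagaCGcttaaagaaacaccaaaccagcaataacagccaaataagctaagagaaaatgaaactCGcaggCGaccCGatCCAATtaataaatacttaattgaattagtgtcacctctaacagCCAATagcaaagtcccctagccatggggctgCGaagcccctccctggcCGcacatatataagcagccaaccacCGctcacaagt

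CpG-rich start sites are frequent Polycomb targets in mammals. With the 50 bases after the start included, the Eomes promoter held 10 CpG dinucleotides, against a median of 7 over 32841 promoters of 300 bases in the same table, and 43.5% of those promoters held at least as many. Its ratio of observed to expected CpG was 0.607, against a median of 0.384, and 35.3% of promoters were at or above it. Its GC content was 47.3%, against a median of 52.7%, and 70.3% of promoters were at or above it. The 300 bases thus lay above the median of all promoters in both CpG measures and below it in GC content. The CCAAT box, searched as CCAAT on both strands, occurred 2 times, with first bases at -127 and -84 from the start, and 37.4% of promoters held it. The T-box core GGTGTGA and the sequence TATAAA, each searched on both strands, had no match in these 300 bases, and 3.98% and 13.6% of promoters held them. Only these exact strings were searched. Variants were not counted, such as the TATATAAG that the sequence above holds near its end, so the absence of a TATA box is not shown.

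Ezh2 was next tested bin by bin. A bin was called where a one-sided exact binomial test against the matching input gave a fold of 2 or more and a p below 0.05 after Benjamini-Hochberg adjustment over all bins with at least 10 positions in both libraries together. In the Eomes window 4 of 21 tested bins were called in Th1 and 13 of 22 in Th2, where the share called among all tested bins of the genome was 0.992% in Th1 and 1.21% in Th2. The 4 bins called in Th1 were all called in Th2, and 9 more bins were called in Th2 alone. A call in 1 cell type and not in the other is no test of a difference. The share of bins called in Th2 alone was not counted over the genome, so this overlap does not set Eomes apart. Against the control antibody 2 of 20 tested bins were called in Th1, neither of them among the 4, and 13 of 22 in Th2, of which 12 were also called over input; 1.49% and 1.36% of all tested bins were called in Th1 and Th2. No bin of the window was called in the control antibody libraries over input, where the genome gave 0.00151% in Th1 and 0% in Th2.

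When called bins were joined across gaps of up to 1 bin, Th1 had a region of 3 kb, from 118384001 to 118387000, that ended just before the 5′ end. It held 76 Ezh2 and 20 input positions, 5.48-fold (3.31 to 9.46). A single further bin, from 118395001 to 118396000, was called in Th1, with 19 Ezh2 and 6 input positions. Th2 had 1 region of 14 kb, from 118384001 to 118398000, with 765 Ezh2 and 83 input positions, 7.92-fold (6.31 to 10.1). The region called in Th2 thus began at the same bin as that in Th1 and ran through the gene start to 10.7 kb beyond it. The extent called changed with the settings. With bins of 2 kb, 10 kb were called in Th1 and 18 kb in Th2. Of all tested bins of that size, 1.14% were called in Th1 and 1.37% in Th2. With both inputs together as background, 7 bins were called in Th1 and 15 in Th2, beside 0.916% and 1.11% of all tested bins.

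The window was then split by the 5′ end into 4 zones: the 7 bins before the bin that holds the 5′ end, that bin, the next 7 bins, and the last 7 bins. Upstream, Ezh2 over input was 3.77-fold in Th1 (2.64 to 5.46), and in Th2 5.71-fold (4.12 to 8.10). In the bin with the 5′ end the counts were 15 Ezh2 and 10 input positions in Th1, or 2.16-fold (0.909 to 5.38), and 74 and 7 in Th2, or 9.09-fold (4.20 to 23.4). This bin was called in Th2 (exact test, adjusted p = 9.38e-11) and not in Th1 (exact test, adjusted p = 0.560). In the next 7 bins the Th1 fold was 2.18 (1.59 to 3.01) and the Th2 fold 5.59 (4.16 to 7.63). In the last 7 bins the Th1 fold was 1.99 (1.41 to 2.83) and the Th2 fold 4.93 (3.48 to 7.16). Of these zones, the fold was highest upstream in Th1 and in the bin with the 5′ end in Th2, and within each library the intervals of the zones overlapped. The zones differ in width, 1 kb against 7 kb, so this order does not place the peak. By bin, both cell types had most Ezh2 positions in the same upstream bin, from 118386001 to 118387000 (30 in Th1 and 88 in Th2).

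**Figure D3:**
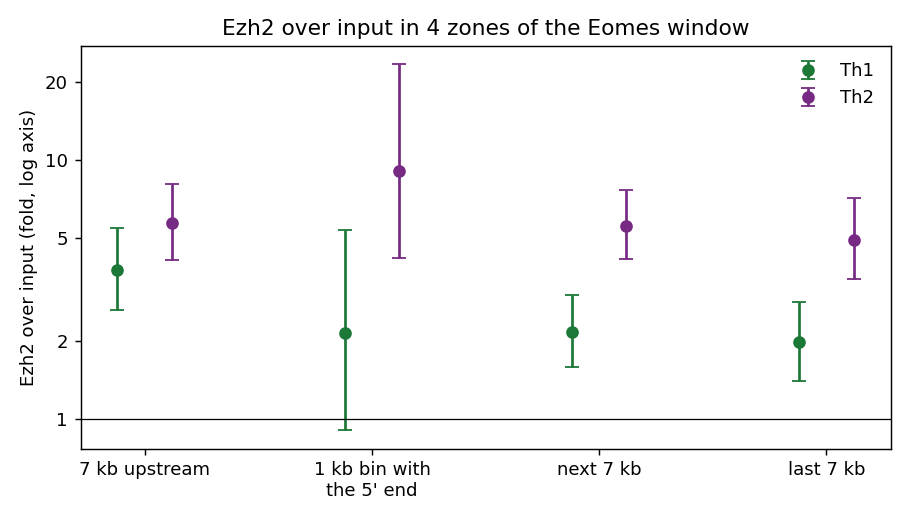
Ezh2 over the input of the same cell type (y axis, fold on a log axis) in 4 zones of the Eomes window, for the Th1 and Th2 libraries. Points are folds of single libraries and bars 95% Clopper-Pearson intervals; the line at 1 marks no enrichment, and the Th1 and Th2 intervals do not overlap in the next 7 kb and the last 7 kb.

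The second question was how far the cell types differed. The Ezh2 libraries, scaled by their totals, gave a Th1 to Th2 ratio of 0.481 in the Eomes window (0.422 to 0.548, two-sided exact binomial test, adjusted p = 1.59e-27 over 114541 windows). Of all windows, 0.925% passed as lower in Th1. The inputs had a ratio of 1.08 (0.862 to 1.36) and the control antibodies 1.06 (0.827 to 1.37) in the same window. Once the inputs entered the test, Ezh2 over input in Th1 was 0.445 of that in Th2 (0.342 to 0.579, conditional exact test, adjusted p = 5.34e-06 over 114534 windows), and 0.0995% of windows passed as lower in Th1. With the control antibodies in place of the inputs, an alternative chosen after seeing the data, the ratio was 0.453 (0.341 to 0.603, conditional exact test, adjusted p = 3.30e-04).

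In the sequence around the window the Ezh2 libraries lay closer together. In the 30 kb before the window the Th1 to Th2 ratio of Ezh2 was 0.963 (0.808 to 1.15), and in the 30 kb after it 0.923 (0.766 to 1.11); both intervals hold 1 and neither overlaps that of the window. Within the window, the ratio was 0.571 upstream (0.455 to 0.711), 0.281 in the bin with the 5′ end (0.150 to 0.493), 0.422 in the next 7 kb (0.335 to 0.527) and 0.527 in the last 7 kb (0.404 to 0.682). For Ezh2 over input the Th1 to Th2 ratio was 0.660 upstream (0.399 to 1.09), an interval that holds 1, and 0.238 in the bin with the 5′ end (0.0667 to 0.836). It was 0.391 in the next 7 kb (0.250 to 0.610) and 0.404 in the last 7 kb (0.243 to 0.670). Whether the zones differed from each other was not tested. By bin, the scaled Ezh2 level was lower in Th1 in 20 of 22 bins, and the interval of the ratio lay below 1 in 13 bins and above 1 in 0. These intervals are not adjusted for the number of bins. The same counts were not made over other bins of the genome, so they do not set Eomes apart.

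**Figure D4:**
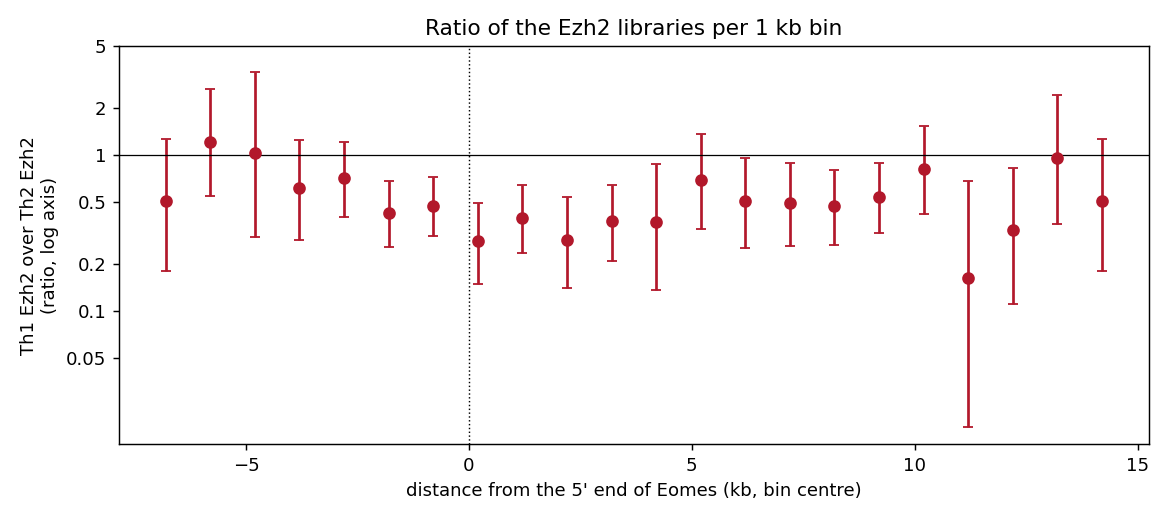
Ratio of the Th1 Ezh2 library to the Th2 Ezh2 library, scaled by library totals (y axis, log axis), in each 1 kb bin of the Eomes window, against the distance of the bin centre from the 5′ end in kb (x axis). Points are ratios and bars 95% Clopper-Pearson intervals, not adjusted for the number of bins. Of the 22 intervals 13 lie below 1, a count not made over other bins of the genome, and the bin with the 5′ end stands at 0.281.

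To set Eomes beside the other places that bind Ezh2, regions were also called on the summed Ezh2 libraries against the summed inputs, and 2902 of them were 3 kb or longer. Over them the median Th1 to Th2 ratio of Ezh2 was 0.854 and that of Ezh2 over input 0.826. At Eomes this gave 1 region of 21 kb, from 118377001 to 118398000, which reached 3 kb beyond the window on the upstream side; without joining across gaps the widest region there was 8 kb, with a Th1 to Th2 ratio of Ezh2 of 0.420. It held 332 Ezh2 positions in Th1 and 900 in Th2, with 170 and 128 input positions in Th1 and Th2 and 103 Th1 control antibody positions. Ezh2 over input was 2.81-fold in Th1 (2.33 to 3.41), and in Th2 6.04-fold (5.02 to 7.33), and the Th1 control antibody stood at 1.01-fold over input (0.784 to 1.30).

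Among these regions the Th1 to Th2 ratio at Eomes was 0.511 (0.449 to 0.580, exact test, adjusted p = 1.65e-25 over 2902 regions), and 28.7% of regions passed as lower in Th1 by the library totals. Relative to the median region the ratio was 0.598 (exact test, adjusted p = 2.85e-14), where 7.06% passed as lower in Th1. For Ezh2 over input, the Th1 to Th2 ratio was 0.466 (0.355 to 0.610, conditional exact test, adjusted p = 8.49e-06), where 4.62% passed as lower. Relative to the median region it was 0.565 (conditional exact test, adjusted p = 0.0102), where 0.207% of the 2902 regions passed as lower in Th1. The Eomes region thus had a lower Th1 to Th2 ratio than the median called region. Its bounds were set on the same Ezh2 counts, 332 in Th1 and 900 in Th2, that these tests compare. A region can be called mainly through the library where it is high, so the tests on it are descriptions.

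By width the Eomes region ranked 111 of 2902. Among the 565 regions of at least 10 kb, its fold over input ranked 548 from the highest in Th1 and 327 in Th2, so that it was near the low end in Th1 and near the middle in Th2. Its Th1 to Th2 ratio of Ezh2 ranked 7 from the lowest of the 565. Over all 2902 regions that ratio ranked 64 from the lowest, and the Th1 to Th2 ratio of Ezh2 over input ranked 141. The median fold over input of these long regions was 5.05 in Th1 and 6.47 in Th2. These ranks are descriptions, since the regions were chosen on the same libraries.

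**Figure D5:**
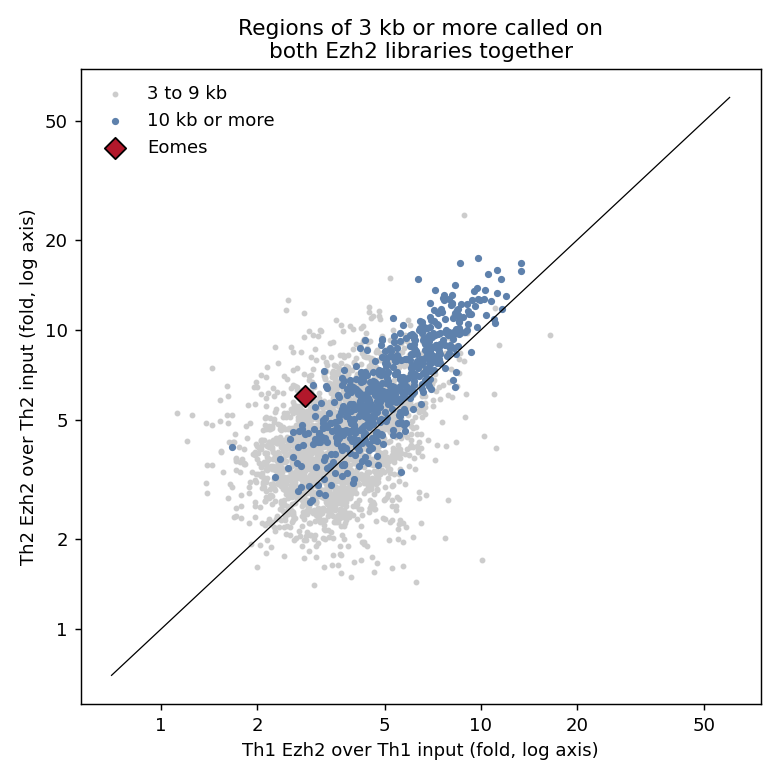
Ezh2 over input in Th1 (x axis) and in Th2 (y axis), both as folds on log axes, for the 2902 regions of at least 3 kb called on both Ezh2 libraries together. Each point is a region, coloured by length, the line marks equal folds, and Eomes (red diamond, about 2.81 in Th1 and 6.04 in Th2) lies on the Th2 side of the line, at the edge of the regions of 10 kb or more.

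The 5 regions most like that at Eomes, by the distance in log2 width and in the log2 folds of Th1 and Th2, each divided by its standard deviation over the 2902 regions, were 14 to 20 kb long. The nearest was chr6:52100001-52118000, of 18 kb, at 3.03-fold over input in Th1 and 5.15-fold in Th2. The next was chr11:44424001-44441000, of 17 kb, at 3.25-fold in Th1 and 5.08-fold in Th2. The others lay on chromosomes 13, 3 and 2, with folds of 2.88 to 3.12 in Th1 and of 4.51 to 5.54 in Th2. In each of the 5 the fold in Th2 was below that at Eomes and the fold in Th1 above it. The 5 were chosen on these same folds, and Eomes lay at the edge of the long regions. This is therefore a description and not a test. Genes in them were not placed.

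Reads per position at Eomes were slightly below those of each library as a whole. In the window the Ezh2 reads per position were 2.19 in Th1 and 1.94 in Th2, against 2.25 and 2.04 over the whole Th1 and Th2 Ezh2 libraries. In the inputs they were 1.19 in Th1 and 1.68 in Th2, against 1.30 and 1.77 over the whole Th1 and Th2 inputs. With all reads counted, the Th1 to Th2 ratio of Ezh2 in the window was 0.495, beside 0.481 with each position counted 1 time.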

How the data were processed

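The 6 deposited files, 1 per library and not pooled, hold read counts: each line has an interval, 119 between its start and end in nearly all lines, without strand, and the number of reads that share it, with no normalization by the authors. The submitters' processing notes name CASAVA and the build mm9; aligner settings, read extension and filters are not given in the sources used here. Libraries were made from gel-purified DNA of 170 to 250 bp with 18 PCR cycles and read for 36 cycles, per the labels' protocols. The Th2 control antibody file ends inside chromosome 17 and was used on the 8 chromosomes it holds whole (3, 4, 5, 6, 7, 9, 12 and X), with the totals of the other libraries taken over the same chromosomes where they were compared with it.

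Distinct intervals were counted at their midpoint on chromosomes 1 to 19 and X with Python 3.11.15, numpy 2.4.6 and pandas 2.3.3. Folds are ratios of counts divided by library totals. Exact binomial and conditional exact tests (scipy 1.17.1, two-sided p as the doubled smaller tail) were adjusted by the Benjamini-Hochberg method over all bins, windows or regions with at least 10 positions; 0.5 was added to counts for fold thresholds and for ranks. PCR reads are not independent molecules, so intervals cover counting error only. The steps were tested on simulated data. The locus, the zones and the lists were chosen with earlier results of these data known. The regions named beside Eomes were the 5 nearest in width and folds; genes other than Eomes were to be named only with an mm9 annotation, and none was used. Alternatives changed the counting, scaling, background, bins and thresholds.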

Additional observations from a re-analysis of the deposited data

Results flagged for a closer look

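Ezh2 over input differed between the Th1 and Th2 libraries at Eomes by a test of the difference itself. In the 22 kb window the Th1 to Th2 ratio of the folds was 0.445 (95% interval 0.342 to 0.579, conditional exact test, adjusted p = 5.34e-06). In the 21 kb region called on both Ezh2 libraries together it was 0.466 (0.355 to 0.610, conditional exact test, adjusted p = 8.49e-06). The 21 kb region was called on these same Ezh2 counts and overlaps the window, so its ratio is a description and not separate support. Both ratios rest on 1 library per group, and the Ezh2 libraries come from different sequencing runs. Cell type and run cannot be told apart.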

How the results depend on the processing

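The folds of Ezh2 over input and over control antibody, the control antibody over input and both Th1 to Th2 ratios in the window kept their direction and their side of the threshold of an adjusted p of 0.05 under each alternative run. The Th1 to Th2 ratio of Ezh2 lay between 0.481 and 0.563, and that of Ezh2 over input between 0.444 and 0.539. Background scaling took library totals only over bins of 10 kb where the ratio over background was at or below its median. This raises folds over background by construction. Ezh2 over input was then 3.57-fold in Th1 and 7.90-fold in Th2. The control antibody over input was 1.32-fold in both, with intervals above 1 (1.03 to 1.67 in Th1 and 1.04 to 1.68 in Th2). Its adjusted p was 0.106 in Th1 and 0.104 in Th2 (exact test). The bins called in Th1, 4 in the window, were 9 with all reads, 10 kb with 2 kb bins, 2 against the control antibody, 1 at a fold of at least 4 and an adjusted p below 0.001, 11 with background scaling and 7 with both inputs together. Among all tested bins of the genome the share called in Th1, 0.992% in the main run, moved as well. It was 3.83%, 1.14%, 1.49%, 0.465%, 4% and 0.916% under those settings. Widths of all called regions that overlap the window were also summed. In Th1 this sum was 4 kb, from the region of 3 kb and the separate single bin. It was 13 kb, 10 kb, 2 kb, 1 kb, 16 kb and 9 kb under those settings, and 7 kb with the bins moved by 500 bases. In Th2 the summed width of 14 kb became 23 kb with all reads, 26 kb with 2 kb bins and 21 kb with background scaling. It was 17 kb with the bins moved by 500 bases or with both inputs together, and 11 kb at the stricter fold and adjusted p. With the libraries thinned to equal depth, 3 bins were called in Th1 and 13 in Th2, beside 1.04% and 1.45% of all tested bins. Without gaps the widest region on both libraries together was 8 kb, with a Th1 to Th2 ratio of 0.420. Beyond this built-in effect of background scaling, the cause of these changes was not tested. No paired analysis was possible because there was 1 library in each group. Both inputs together, control antibodies as background of the ratio, and equal depth were chosen after seeing the data. At 1 kb the inputs held 0 to 14 positions a bin in the window, which limits what single bins can show.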

Other observations

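Before the window, the bin from 118377001 to 118378000 held 8 Ezh2 positions in Th1 and 25 in Th2, with 7 and 5 input positions in Th1 and Th2, and the bin after it held 14 in Th1 and 24 in Th2. Neither bin was called over input in Th1 or in Th2. The first of them was 4.30-fold over input in Th2 (1.62 to 14.4, exact test, adjusted p = 0.0557). Over the control antibody this first bin was called in Th2 (exact test, adjusted p = 0.0115) and not in Th1. The second bin was called over the control antibody in neither cell type. The bin from 118379001 to 118380000 was called in Th1, with 18 Ezh2 and 5 input positions, and not in Th2, with 16 and 5.

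A single bin about 22 kb before the 5′ end, from 118365001 to 118366000, held 17 Ezh2 positions in Th1 and 23 in Th2. Scaled to depth this was 38.1 scaled positions per kb in Th1 and 37.2 in Th2, a Th1 to Th2 ratio of 1.02 (95% interval 0.513 to 2.00). It was called in Th1, with 4 input positions, and not in Th2, with 10. These bins were picked after their values were seen.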
